A study of Homo sapiens with 12 samples.

Results

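The integrated stress response was followed through 10 regulators in A375 cells, an established human melanoma line carrying an activated BRAF kinase, before, during and after treatment with MAPK inhibitors (MAPKi). The set was fixed by name as the rows ATF4, ATF3, ATF5, DDIT3, DDIT4, TRIB3, CHAC1, SESN2, CEBPB and PPP1R15A among the 44659 genes of the count table. This rule uses names only, although the names were proposed with earlier results of these data known. Cells given only the solvent DMSO for 72 h are the controls (CC) and were collected at day 0. Treated cells (TC) received vemurafenib, a BRAF inhibitor, at 500 nM together with cobimetinib, a MEK inhibitor, at 500 nM for 72 h and were also collected at day 0. Persister cells (PC) had the same 72 h of MAPKi followed by 2 days without drug, and recovered cells (RC) had 9 days without drug. Each of the 4 groups held 3 libraries. All groups came from this single cell line, each drug-free period ended on a day of its own, and there was no DMSO group at day 2 or day 9, so that the time in culture and the time since drug removal cannot be told apart. The labels do not say that the 3 libraries of a group came from separate cultures, so p-values measure the spread between these libraries, which may be technical.

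The integrated stress response is switched on when kinases that sense amino acid shortage, unfolded proteins in the endoplasmic reticulum, viral RNA or haem shortage phosphorylate the translation initiation factor eIF2. Protein synthesis then falls as a whole, while translation of the ATF4 messenger rises because of short reading frames upstream of its coding sequence. ATF4 protein, a basic leucine zipper (bZIP) transcription factor, pairs with C/EBP factors on composite C/EBP-ATF elements and switches on genes for amino acid synthesis, amino acid uptake and tRNA charging, as well as the other regulators described here. RNA sequencing measures the transcripts of these genes and neither the translation of ATF4 nor eIF2 phosphorylation.

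RefSeq promoters (GRCh38.p14, 250 bases before to 50 bases after a transcript start) were matched for 10 of the 10 regulators, which together had 18 of them. Of 4 motifs searched on both strands, each was found upstream of at least 1 regulator, and the motifs were kept after their matches had been seen. The C/EBP-ATF element TGATGNAA was in 3.62% of all 35116 promoters, the AP-1 element TGAGTCA in 4.95%, the cyclic AMP element TGACGTCA in 1.85% and the E-box CACGTG in 7.26%. Of the other pathway genes, matches were recorded only for ASNS, CEBPG and JDP2, so that their matches give no rate for the pathway. Stretches of 30 bases are shown, with these 3 genes for comparison. They set the regulators whose transcripts fell beside those whose transcripts rose. They are written 5′ to 3′ on the strand of the gene, and capitals mark the motif, which in CHAC1, DDIT3 and ATF5 lies on the opposite strand and is read here as its reverse complement.
CHAC1, C/EBP-ATF element, chr15:40953251-40953280, plus strand, 209 bases before the start: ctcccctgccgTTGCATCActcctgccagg
ATF3, C/EBP-ATF element, chr1:212565205-212565234, plus strand, 191 bases before the start: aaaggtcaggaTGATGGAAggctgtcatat
ASNS, C/EBP-ATF element, chr7:97872458-97872487, minus strand, 68 bases before the start: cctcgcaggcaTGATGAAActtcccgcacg
CEBPG, C/EBP-ATF element, chr19:33374060-33374089, plus strand, 42 bases before the start: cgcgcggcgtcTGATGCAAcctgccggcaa
JDP2, C/EBP-ATF element, chr14:75427992-75428021, plus strand, 16 bases before the start: tatatagccggggcTGATGCAAcccgtccc
DDIT3, AP-1 element, chr12:57520735-57520764, minus strand, 241 bases before the start: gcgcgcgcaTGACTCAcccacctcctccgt
ATF5, AP-1 element, chr19:49928706-49928735, plus strand, 188 bases before the start: gggagagtgctgTGACTCAtgctggactct
PPP1R15A, cyclic AMP element, chr19:48872352-48872381, plus strand, 58 bases before the start: gcctctcttcgTGACGTCAgcacgccgggc
ATF4, E-box, chr22:39520465-39520494, plus strand, 82 bases before the start: ggaggagacggtCACGTGgtcgcggcggaa

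The element TGATGNAA stood upstream both of CHAC1, whose transcript fell most among the regulators under MAPKi, and of ATF3, whose transcript rose most. A match to these letters is a description of the window and not of binding. DDIT4, TRIB3, SESN2 and CEBPB held none of the 4 motifs in their windows.

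Total counts ran from 37773389 to 55567097 per library, so that 3 counts were worth at most 0.0785 CPM (read counts scaled to the normalized library size), a floor that covers counting error only. The chi-square per degree of freedom between pairs of libraries of a group, taken over genes, ran from 39.6 to 81.2 in CC, with the highest value between replicates 2 and 3, from 18.0 to 53.4 in TC, and up to 22.2 in PC and 15.9 in RC. No library was a duplicate of another. Summed melanoma markers reached 1305 to 1453 CPM in CC, 1860 to 2443 in TC, 1660 to 2004 in PC and 1141 to 1177 in RC, with 0 of 6 markers at 0. The markers did not move together between CC and TC. PMEL averaged 70.1 and 615 CPM in CC and TC, SOX10 659 and 1046, AXL 6.96 and 37.9, and MLANA 0.545 and 1.51. S100B averaged 264 and 140 CPM, and MITF 362 and 321. Among 8 markers of other cell types, PECAM1, EPCAM, KRT5, DCN and PTPRC stayed at or under 0.694 CPM and KRT14 under 2.64, whereas CD68, a lysosomal protein, ranged from 118 to 1065 CPM and LUM from 5.98 to 33.1. The labels describe cytoplasmic RNA. The study's methods describe a detergent lysate cleared by centrifugation under cell harvesting, but total RNA under sequencing. How far nuclear RNA was removed is thus not settled by the sources used here. The nuclear transcripts MALAT1, NEAT1 and RN7SK summed to 194 to 379 CPM in CC, 64.1 to 69.0 in TC, 73.8 to 83.3 in PC and 241 to 263 in RC. NEAT1 made up most of this, at 303 CPM on average in CC and 65.0 in TC. MALAT1 averaged at most 1.28 CPM and RN7SK at most 0.931 CPM in any group. The part of the shifts between groups in the results was not tested.

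At 72 h of MAPKi, 6 of the 9 regulators that could be tested fell and 2 rose. The genes ATF4, DDIT3, CEBPB, TRIB3, CHAC1 and DDIT4 were lower in TC than in CC, while ATF3 and ATF5 were higher and PPP1R15A passed the test in neither direction. Over all 15916 genes tested in this comparison, 34.7% were called lower and 33.2% higher at an adjusted p under 0.05 (edgeR quasi-likelihood test, Benjamini-Hochberg). All 8 of these regulators were also called beyond 1.5-fold, as were 35.4% of all genes. In each of the 8, the 3 TC libraries lay outside the range of the 3 CC libraries. For this and later comparisons, the share of all genes with such a separation was not computed. It therefore cannot be called particular to the regulators. A fall in a bulk sample may be less RNA per cell or fewer cells of a kind, which cannot be told apart here.

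**Figure D1:**
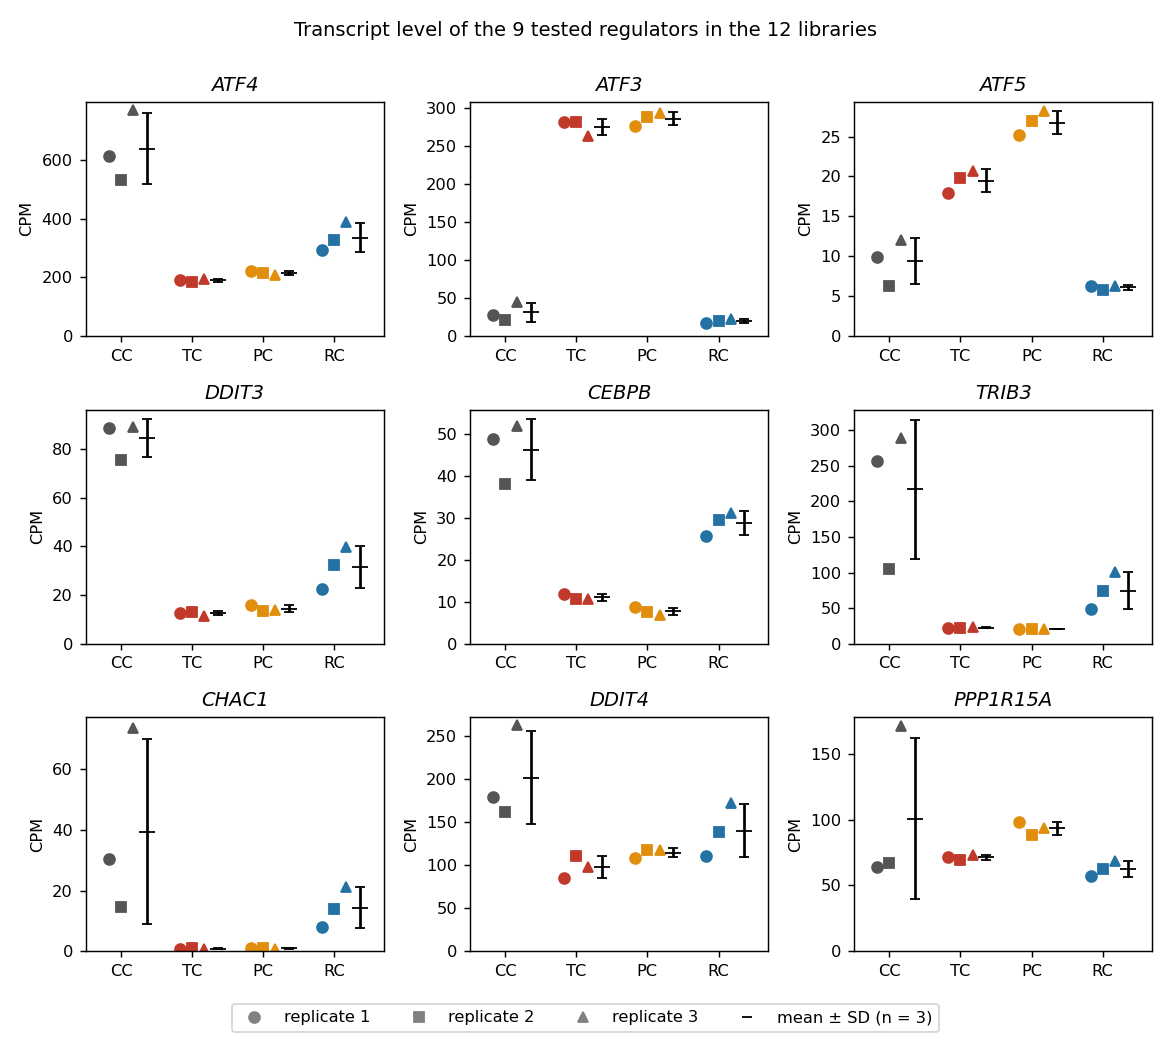
Transcript level of the 9 tested regulators in CPM (vertical axes, linear and starting at 0) in each library of CC, TC, PC and RC (horizontal axes), with points for replicates 1 to 3 and bars for mean ± SD (n = 3). ATF4, DDIT3, CEBPB, TRIB3 and CHAC1 are high in CC, low in TC and PC and in between in RC, whereas ATF3 reaches 263 to 293 CPM in TC and PC and stays at or under 45.0 CPM in CC and RC.

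ATF4 (chr22:39519695-39522683, plus strand, GENCODE v44 on hg38), the transcription factor at the centre of the pathway, was measured at 615, 533 and 769 CPM in CC replicates 1 to 3, at 190, 184 and 196 CPM in TC, 222, 215 and 208 CPM at day 2 (PC) and 292, 326 and 389 CPM at day 9 (RC). Its libraries thus fell into 3 levels, CC on top, RC between, and TC and PC at the bottom. The mean in TC was 29.7% of that in CC, or -1.75 as a log2 fold change (SE 0.13, adjusted p = 1.41e-07). In PC it was 33.7%, or -1.57 (SE 0.13, adjusted p = 3.37e-07). The TC and PC libraries did not overlap, but the step between these neighbours did not pass the test (difference 0.18 on the log2 scale, SE 0.12, adjusted p = 0.328).

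DDIT3 (chr12:57516588-57521737, minus strand) encodes CHOP, the bZIP factor that ATF4 induces under prolonged stress and that promotes cell death. It held 88.8, 75.7 and 89.3 CPM in CC, 12.6, 13.2 and 11.5 in TC, with PC at 15.9, 13.3 and 13.8 and RC at 22.6, 32.3 and 39.6. The order of the groups was that of ATF4, with a deeper fall to 14.7% of the CC mean in TC and 16.95% in PC, log2 fold changes of -2.77 (SE 0.17, adjusted p = 3.38e-08) and -2.56 (SE 0.17, adjusted p = 5.79e-08). DDIT3 shares 355 exonic bases with MARS1, a tRNA synthetase gene on the opposite strand, and 58 with MBD6, also on the opposite strand. It shares 105 exonic bases with a protein-coding gene without a symbol on the same strand, which stay ambiguous with any strand setting. The strand setting of the counting was not given in the sources used here, so that reads from these stretches cannot be assigned with certainty. MARS1 itself averaged 304 CPM in CC, 98.5 in TC, 95.4 in PC and 199 in RC, and MBD6 55.6, 62.4, 74.7 and 44.1.

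CEBPB (chr20:50190830-50192668, plus strand), a C/EBP factor that can pair with ATF4, stood at 49.0, 38.2 and 51.9 CPM in CC, 11.9, 10.6 and 10.6 in TC, 8.68, 7.45 and 6.94 at day 2 (PC) and 25.7, 29.6 and 31.2 at day 9 (RC). No library of any group overlapped with a library of another group. CEBPB fell by 2.07 on the log2 scale in TC (SE 0.13, adjusted p = 3.67e-08) and by 2.59 in PC (SE 0.13, adjusted p = 6.81e-09). It shares 231 exonic bases with CEBPB-AS1 on the opposite strand, which averaged at most 1.04 CPM in any group.

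TRIB3 (chr20:362835-397559, plus strand), a pseudokinase that is induced by ATF4 and DDIT3 and restrains ATF4, held 257, 106 and 289 CPM in CC, 21.6, 22.4 and 22.9 in TC, 20.6 in each of the 3 PC libraries, and 48.3, 73.8 and 100.3 in RC. CC replicate 2 was the lowest of its group but remained above every library of the other groups. The log2 fold change was -3.28 in TC (SE 0.34, adjusted p = 3.22e-06) and -3.40 in PC (SE 0.34, adjusted p = 2.34e-06).

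CHAC1 (chr15:40952962-40956512, plus strand), an enzyme that degrades glutathione, had the deepest fall of the set. It was counted at 30.3, 14.6 and 73.4 CPM in CC, 0.881, 0.945 and 0.839 in TC, with PC at 0.942, 1.09 and 0.763 and RC at 7.85, 13.8 and 21.3. The TC mean was 2.25% and the PC mean 2.36% of the CC mean. These are log2 fold changes of -5.47 (SE 0.59, adjusted p = 4.74e-06) and -5.40 (SE 0.59, adjusted p = 4.78e-06). Without CC replicate 3, the highest library, the fall in TC was still -4.65 on the log2 scale.

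DDIT4 (chr10:72273919-72276036, plus strand), which encodes REDD1, an inhibitor of mTORC1, changed least among the regulators that fell. Its levels were 179, 162 and 263 CPM in CC, 85.4, 110.03 and 97.8 in TC, 109, 117 and 117 at day 2 (PC) and 110.1, 138 and 172 at day 9 (RC). TC and PC lay below all CC libraries, while RC overlapped with both CC and PC. The log2 fold change was -1.04 in TC (SE 0.19, adjusted p = 3.12e-04) and -0.81 in PC (SE 0.18, adjusted p = 0.00181).

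ATF3 and ATF5 moved the other way. ATF3 (chr1:212565334-212620777, plus strand), a bZIP factor known both as an ATF4 target and as an early response gene, held 27.1, 20.7 and 45.0 CPM in CC, 281, 281 and 263 in TC, with PC at 276, 287 and 293 and RC at 17.4, 19.1 and 22.1. TC and PC stood above all other libraries by a wide margin. The rise was 8.87-fold in TC (log2 3.15, SE 0.22, adjusted p = 9.59e-08) and 9.22-fold in PC (log2 3.20, SE 0.22, adjusted p = 7.81e-08).

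ATF5 (chr19:49928702-49933935, plus strand), a bZIP factor whose translation is controlled like that of ATF4, was at 9.94, 6.23 and 11.998 CPM in CC, 18.0, 19.8 and 20.7 in TC, 25.2, 26.9 and 28.2 at day 2 (PC) and 6.25, 5.71 and 6.28 at day 9 (RC). The TC libraries lay above every CC library and the PC libraries above every TC library. ATF5 rose by 1.05 on the log2 scale in TC (SE 0.18, adjusted p = 2.11e-04) and by 1.51 in PC (SE 0.18, adjusted p = 1.02e-05). It shares 565 exonic bases with NUP62 on the opposite strand, which averaged 71.2 CPM in CC, 67.3 in TC, 71.9 in PC and 97.3 in RC.

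PPP1R15A (chr19:48872212-48876059, plus strand) encodes GADD34, which directs protein phosphatase 1 to eIF2 and so ends the response. It was at 64.1, 66.9 and 171 CPM in CC, 71.5, 69.6 and 72.9 in TC, with PC at 98.4, 88.4 and 93.6 and RC at 56.8, 62.4 and 68.6. CC replicate 3 stood far above every other library, and the remaining CC libraries lay below all TC and PC libraries. The log2 fold change was -0.50 in TC (SE 0.29, adjusted p = 0.145) and -0.11 in PC (SE 0.29, adjusted p = 0.748). Without CC replicate 3 the values were 0.13 (adjusted p = 0.154) and 0.52 (adjusted p = 9.75e-05), so that the direction rested on that library. Without CC replicate 1 or CC replicate 2, the difference in TC was -0.74 (adjusted p = 0.0339) or -0.72 (adjusted p = 0.0417).

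SESN2 (chr1:28259518-28282491, plus strand), a leucine sensor that restrains mTORC1, could not be tested. Its row held 0 counts in 11 libraries and 1 count in PC replicate 3. The table also lists a numbered entry of the same name, with 369, 13 and 76 counts in CC, 17, 11 and 21 in TC, 9, 11 and 4 at day 2 (PC) and 14, 23 and 41 at day 9 (RC). How reads that match several annotated copies were assigned was not given, so that neither row is read as the level of SESN2.

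**Figure D2:**
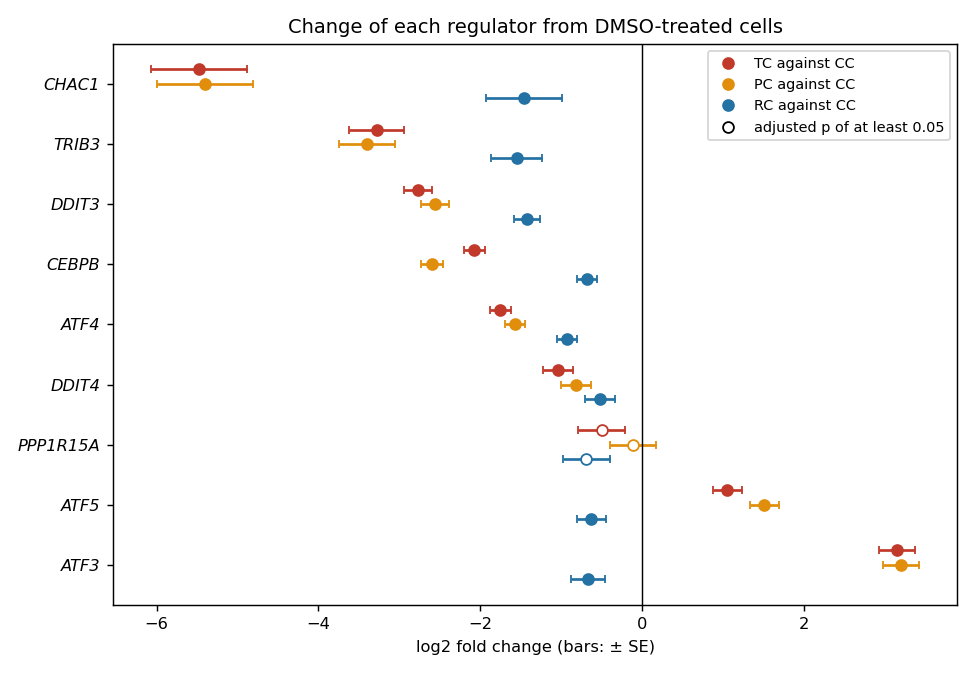
Log2 fold change of each tested regulator against CC (horizontal axis, bars ± SE) for TC, PC and RC (colours), with open points where the adjusted p was 0.05 or more. CHAC1, TRIB3, DDIT3, CEBPB, ATF4 and DDIT4 lie to the left of 0 in all 3 comparisons, with RC closest to 0, and ATF3 and ATF5 lie to the right in TC and PC only.

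Scaled to exon length, the order of the regulators changed between the groups. In CC, ATF4 was the most abundant at 244 CPM per kb of exon, followed by DDIT4 at 94.9, TRIB3 at 65.9, DDIT3 at 64.7, PPP1R15A at 29.3, CEBPB at 25.2, CHAC1 at 19.2, ATF3 at 7.74 and ATF5 at 3.25. In TC, ATF3 stood at 68.7 CPM per kb beside ATF4 at 72.6, whereas DDIT3 was at 9.52, TRIB3 at 6.78, ATF5 at 6.74, CEBPB at 6.01 and CHAC1 at 0.433.

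After 2 days without drug, the counts in PC against CC equalled those in TC, with 6 of 9 regulators lower and 2 higher, where 35.9% and 33.2% of all genes were called, and 7 were called beyond 1.5-fold, as were 37.1% of all genes. DDIT4 was the regulator below that size (adjusted p = 0.0977 for a change beyond 1.5-fold). The TC and PC comparisons share their CC libraries. Between PC and TC themselves, 1 of 9 regulators was called lower and 0 higher, against 12.5% and 12.2% of all genes, and 0 were called beyond 1.5-fold, against 3.48%. That gene was CEBPB (log2 fold change -0.52, SE 0.13, adjusted p = 0.0122), and without PC replicate 3 it passed no longer (adjusted p = 0.057). ATF5 was higher in PC by a log2 value of 0.46 (SE 0.17, adjusted p = 0.0783), and it passed without CC replicate 2 (adjusted p = 0.00388) or CC replicate 3 (adjusted p = 0.0244). PPP1R15A was 0.39 higher (SE 0.29, adjusted p = 0.365) and passed without CC replicate 3 (adjusted p = 0.00144).

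Between 2 and 9 days without drug, 5 of 9 regulators rose and 2 fell, where 35.7% of all genes rose and 34.2% fell. The 5 that rose were ATF4, DDIT3, CEBPB, TRIB3 and CHAC1, each of which had fallen under MAPKi, and the 2 that fell were ATF3 and ATF5. CHAC1 rose 15.4-fold (log2 3.94, SE 0.57, adjusted p = 5.13e-05), CEBPB 3.75-fold (adjusted p = 7.09e-08), TRIB3 3.60-fold (adjusted p = 2.70e-04), DDIT3 by 1.14 on the log2 scale (adjusted p = 5.42e-05) and ATF4 1.56-fold (adjusted p = 5.84e-04). ATF3 changed by -3.87 in log2 terms (SE 0.23, adjusted p = 1.94e-08) and ATF5 by -2.14 (SE 0.18, adjusted p = 5.43e-07). All but ATF4 of these 7 were called beyond 1.5-fold, 6 in all, against 38.7% of all genes. DDIT4 differed by 0.29 (adjusted p = 0.176), and PPP1R15A by -0.58 (adjusted p = 0.0934), which was -0.58 at an adjusted p of 1.32e-05 without CC replicate 3.

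In recovered cells most regulators were below their level in CC. In RC, 8 of 9 regulators were called lower than in CC and 0 higher, where 19.1% and 18.2% of all genes were called. The means relative to CC were 34.2% for TRIB3, 36.3% for CHAC1, 37.2% for DDIT3, 52.5% for ATF4, 62.2% for CEBPB, 63.2% for ATF3, 64.8% for ATF5 and 69.7% for DDIT4. Beyond 1.5-fold there were 2 of 9, DDIT3 and TRIB3, against 3.87% of all genes, and ATF4 lay just outside (adjusted p = 0.0504). ATF4, DDIT3, TRIB3 and CEBPB had no overlap between RC and CC, with log2 fold changes of -0.93 (SE 0.13, adjusted p = 1.96e-04), -1.42 (SE 0.16, adjusted p = 7.3e-05), -1.55 (SE 0.32, adjusted p = 0.00256) and -0.68 (SE 0.12, adjusted p = 0.00123). These 4 passed whichever library was left out.

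The other 4 calls in RC were each lost when certain single libraries were left out. ATF3 (log2 fold change -0.66, SE 0.21, adjusted p = 0.0277), ATF5 (-0.63, SE 0.18, adjusted p = 0.0174), CHAC1 (-1.46, SE 0.47, adjusted p = 0.0295) and DDIT4 (-0.52, SE 0.18, adjusted p = 0.0424) overlapped between RC and CC. Without CC replicate 3 the number of regulators called lower was 4, without RC replicate 2 it was 4, and without RC replicate 1 it was 5. Without CC replicate 3, the difference was -0.28 for ATF3 (adjusted p = 0.074), -0.41 for ATF5 (adjusted p = 0.0601), -0.64 for CHAC1 (adjusted p = 0.181) and -0.28 for DDIT4 (adjusted p = 0.176). ATF5 also lost its call without CC replicate 1 (adjusted p = 0.0549), and DDIT4 lost it without PC replicates 1, 2 or 3 or TC replicate 3 (adjusted p between 0.0521 and 0.0567). In these fits the DDIT4 value stayed at -0.52. Without RC replicate 2, the values were -0.64 for ATF3, -0.58 for ATF5, -1.43 for CHAC1 and -0.51 for DDIT4, near those of all libraries. PPP1R15A differed by -0.69 (adjusted p = 0.0815), and by -0.06 without CC replicate 3. It passed without CC replicate 1 (-0.93, adjusted p = 0.0265) or CC replicate 2 (-0.91, adjusted p = 0.0254). Beyond 1.5-fold, the number was 4 without CC replicate 2 and 1 without CC replicate 1 or 3, RC replicate 1 or 2, or any single TC or PC library.

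Within CC and RC, the regulators shared their highest and, but for 1 of them, their lowest library. All 9 tested regulators were highest in CC replicate 3 of the CC libraries and 8 were lowest in CC replicate 2, where 34.4% and 32.5% of all tested genes were highest and lowest in these libraries and 19.8% were both. In RC, all 9 were highest in replicate 3 and 8 were lowest in replicate 1, against 33.1% and 38.2% of all genes, and 21.2% were both. The highest library exceeded the lowest 5.04-fold for CHAC1, 2.73-fold for TRIB3 and 2.67-fold for PPP1R15A in CC, but 1.18-fold for DDIT3. In RC the ratio was 2.71 for CHAC1 and 2.08 for TRIB3. In TC and PC no such order was seen for the regulators. The lowest values were spread over the 3 libraries of TC with 3 regulators each, and over PC replicates 1 to 3 with 4, 2 and 3. From lowest in replicate 1 to highest in replicate 3 there were 2 of 9 regulators in TC and 4 of 9 in PC, where 26.9% and 24.2% of all genes had this order. The ratio of the highest to the lowest library was at most 1.29 in TC (DDIT4) and 1.42 in PC (CHAC1). For ATF4, ATF3, TRIB3, CHAC1, DDIT4 and PPP1R15A it was smaller in TC and PC than in CC, but for DDIT3 it was 1.196 in PC against 1.18 in CC, and for ATF5 it was 1.15 in TC and 1.12 in PC against 1.099 in RC. For CEBPB it was 1.25 in PC against 1.22 in RC.

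**Figure D3:**
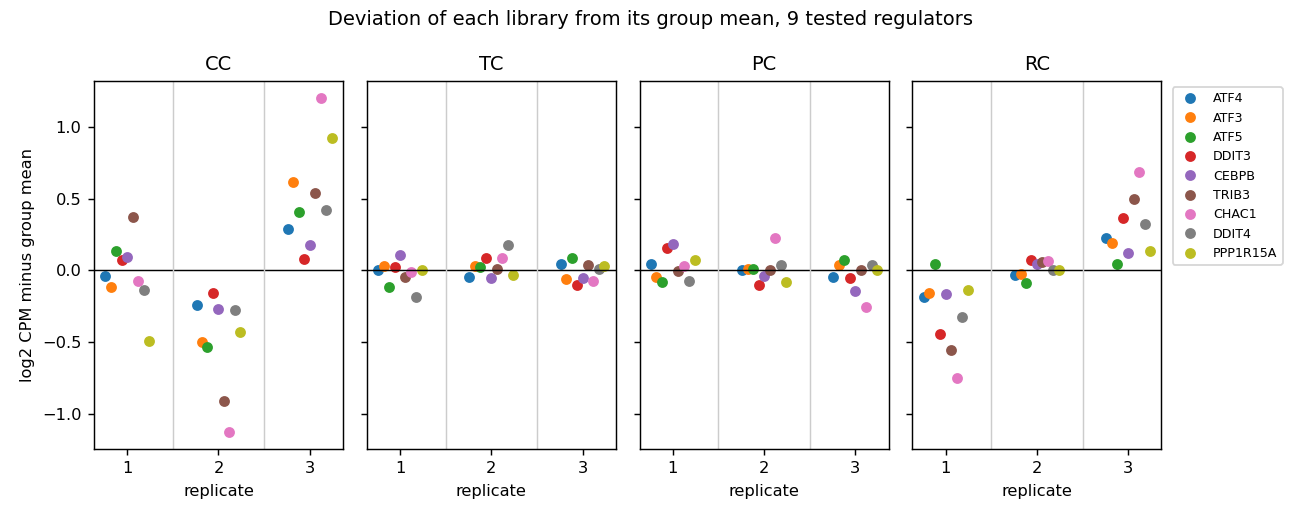
Deviation of each library from the mean of its group in log2 CPM (vertical axis) for the 9 tested regulators (colours), by group (panels) and replicate (horizontal axis). All 9 points are above 0 in CC replicate 3 and in RC replicate 3 and CHAC1 spans the widest range in both groups, while in TC and PC the points show no common order.

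Over the 12 libraries, the deviations from the group means gave a Pearson correlation of 0.957 between ATF4 and CHAC1 and a median of 0.764 over the 36 pairs of regulators (range 0.195 to 0.957). For ATF4 these deviations ran from -0.245 to 0.284 in CC and from -0.188 to 0.222 in RC. In TC and PC they ran only from -0.0461 to 0.0453, so that CC and RC weigh most in its correlations. The libraries, their scaling and the 8 degrees of freedom left after the group means were shared by all pairs, and the values are a description. In other arms of the pathway, the order from lowest in replicate 1 to highest in replicate 3 was also counted. It held in RC for 13 of 13 genes of tRNA charging (tRNA synthetases and the tRNA exporter XPOT), 12 of 13 amino acid enzymes, 6 of 8 amino acid transporters and 2 of 14 other endoplasmic reticulum stress genes, against 21.2% of all genes. In TC it held for 4, 3, 6 and 9 genes of these arms, in the same sequence, against 26.9% of all genes. In PC it held for 6, 2, 2 and 10 of them, against 24.2%. In CC, replicate 2 was lowest and replicate 3 highest for 7 of 8 amino acid transporters, 6 of 14 other endoplasmic reticulum stress genes, 5 of 13 genes of tRNA charging and 5 of 13 amino acid enzymes. Taken alone, CC replicate 2 was lowest for 8, 8, 12 and 11 genes of these arms, in the same sequence, against 32.5% of all genes. CC replicate 3 was highest for 7, 8, 6 and 5 of them, against 34.4%.

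Most known outputs of ATF4 were lower in TC. All 13 genes of the tRNA charging list, which are tRNA synthetases and XPOT, were lower, with a median log2 fold change of -1.62. Of the enzymes of amino acid and one-carbon metabolism, 12 of 13 were lower and 0 higher, with a median of -2.61. Of 8 tested amino acid transporters (of 9 listed), 6 were lower and 0 higher, with a median of -1.68. The median over all tested genes was -0.02, with 34.7% called lower and 33.2% higher. Among the enzymes, PHGDH, which opens serine synthesis, averaged 292 CPM in CC and 17.9 in TC (log2 fold change -4.03, adjusted p = 5.51e-10). The mitochondrial folate enzymes MTHFD2 (532 to 43.6 CPM, log2 fold change -3.61) and ALDH1L2 (24.8 to 1.82 CPM, -3.76) followed. The transporters with the largest falls were SLC7A1 for cationic amino acids (269 to 35.0 CPM, -2.94), SLC1A5 for glutamine (476 to 78.2 CPM, -2.61) and the cystine carrier SLC7A11 (247 to 53.6 CPM, -2.199). Among the synthetases, AARS1 fell from 713 to 109 CPM (-2.71) and GARS1 from 511 to 90.1 CPM (-2.50). IARS1 fell by 2.49 on the log2 scale (adjusted p = 0.00493), with CC libraries at 12.7, 19.3 and 68.5 CPM. The enzyme PCK2, the synthetase CARS1, and SQSTM1 and HYOU1 of the lists described next also have a numbered entry, which makes their counts uncertain. Without them, 12 of 12 genes of tRNA charging and 12 of 12 enzymes were lower in TC.

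**Figure D4:**
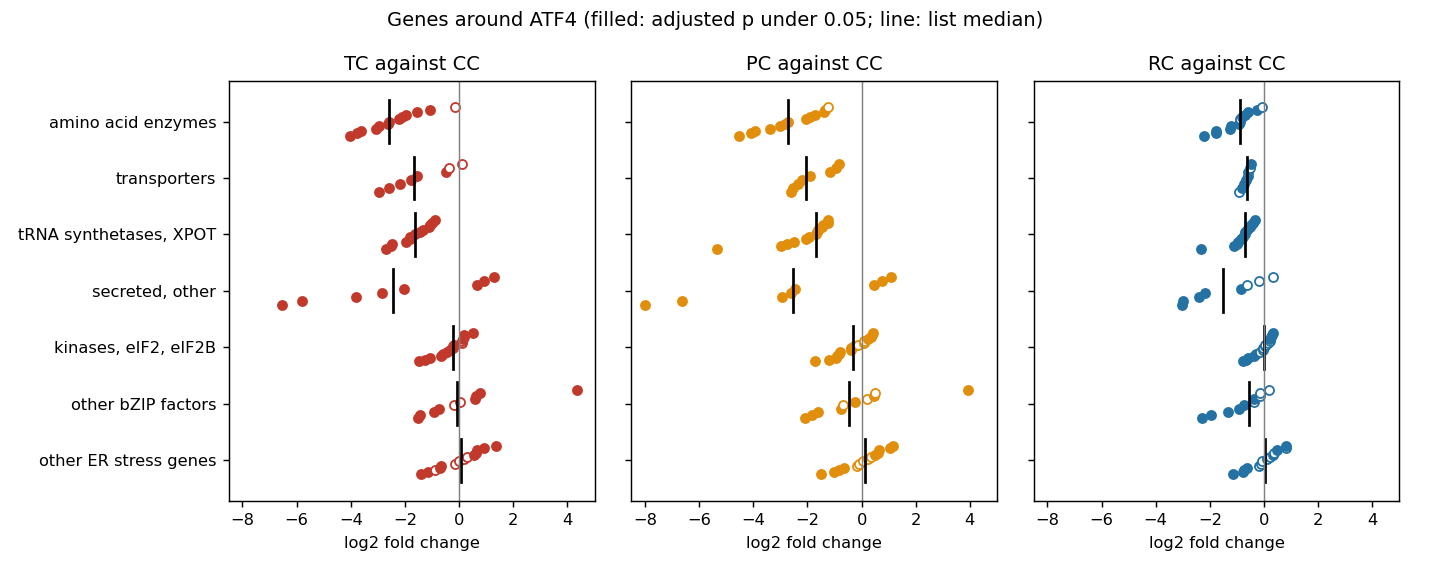
Log2 fold change against CC (horizontal axes) of the genes around ATF4 by list (rows) in TC, PC and RC (panels), each point a gene, filled where the adjusted p was under 0.05, with a line at the median of the list. All genes of tRNA charging (tRNA synthetases and XPOT) lie left of 0 in the 3 panels, and their median moves from -1.62 in TC and -1.67 in PC to -0.71 in RC.

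These arms stayed low in PC, with 13 of 13, 12 of 13 and 8 of 8 genes lower and medians of -1.67, -2.72 and -2.05. Over all genes, 35.9% were lower in PC. In RC, 13 of 13, 11 of 13 and 6 of 8 genes of the arms were lower, against 19.1% of all genes. Their medians in RC were -0.71, -0.90 and -0.64, with a median of all genes of 0.00. From PC to RC 13, 12 and 6 of these genes rose and 0 fell, where 35.7% of all genes rose and 34.2% fell. Thus the arms lay between PC and CC in RC, as ATF4 did. PHGDH in RC averaged 123 CPM (log2 fold change against CC -1.25, adjusted p = 5.11e-05) and MTHFD2 327 CPM (-0.70, adjusted p = 0.00439).

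Of 8 tested secreted and other targets (of 9 listed), 5 were lower and 3 higher in TC, with a median of -2.45. Over all genes, 34.7% were lower in TC and 33.2% higher. Among those called lower, the autophagy receptor SQSTM1 held 8.14, 128 and 14.3 CPM in CC and 11.4 to 13.1 in TC, so that its CC mean rested on replicate 2, and its numbered entry was called higher (log2 fold change 0.47, adjusted p = 0.0394). Without SQSTM1 there were 4 lower and 3 higher of 7. GDF15, a secreted stress hormone, held 1050, 786 and 1584 CPM in CC, 25.5, 17.1 and 19.2 in TC, with PC at 6.91, 3.67 and 3.03 and RC at 232, 248 and 282. It thus fell by 5.79 on the log2 scale in TC (SE 0.33, adjusted p = 1.57e-08), with no overlap between any of the 4 groups. STC2, a secreted glycoprotein, fell from 18.2 to 1.28 CPM (-3.81), and the peptide hormone gene ADM2 from 6.51 to 0.0606 CPM on average. The TC level of ADM2 came from 0, 2 and 7 counts and lay under the floor of 0.0785 CPM. The angiogenic factor VEGFA (88.3 to 218 CPM, log2 fold change 1.30, adjusted p = 9.16e-04), the lipoprotein receptor VLDLR (0.94) and the autophagy gene MAP1LC3B (0.68) rose. In PC 5 were lower and 3 higher (median -2.54), against 35.9% and 33.2% of all genes. In RC 5 were lower and 0 higher (median -1.51), against 19.1% and 18.2%.

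Upstream of ATF4, 10 of 16 genes for eIF2 kinases and their cofactors, eIF2 and its exchange factor eIF2B were lower in TC and 4 were higher, with a median of -0.22. Over all genes, 34.7% were lower in TC and 33.2% higher. The falls were led by EIF2B2 (153 to 54.0 CPM, log2 fold change -1.50), EIF2S2 (335 to 141 CPM, -1.25) and EIF2S3 (543 to 260 CPM, -1.06), which encode subunits of eIF2B and eIF2. EIF2AK3, the kinase PERK, rose by 0.51 (SE 0.10, adjusted p = 7.82e-04). IMPACT, an inhibitor of the kinase GCN2, rose by 0.19 and EIF2AK4, which encodes GCN2, by 0.16. In PC 9 were lower and 4 higher (median -0.33), against 35.9% and 33.2% of all genes. In RC 5 were lower and 4 higher (median 0.01), against 19.1% and 18.2%.

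Among 10 other bZIP factors that can pair with the regulators or share their sites, 4 were higher and 4 lower in TC, with a median of -0.07, near the shares of all genes (33.2% higher and 34.7% lower). JUN, an AP-1 subunit, stood at 48.9, 43.96 and 47.3 CPM in CC, 936, 968 and 953 in TC, 676, 717 and 765 at day 2 (PC) and 20.6, 19.0 and 16.9 at day 9 (RC). Like ATF3, it was far higher in TC and PC than in CC and lowest in RC (log2 fold change in TC 4.35, SE 0.09, adjusted p = 8.17e-12). NFE2L1 rose by 0.76 and FOS by 0.61 (adjusted p = 0.0362) in TC. CEBPG, the C/EBP partner of ATF4, fell by 1.51 (83.3 to 29.2 CPM), JDP2 by 1.46 and CEBPD by 0.93 (adjusted p = 0.033, with overlapping libraries). In PC 2 were higher and 5 lower (median -0.45), where the shares of all genes were 33.2% and 35.9%. In RC 0 were higher and 6 lower (median -0.55), against 18.2% and 19.1%.

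Of 5 tested relatives of the regulators (of 6 listed), 1 was higher and 2 were lower in TC, with a median of -0.22. Over all genes, 33.2% were higher in TC and 34.7% lower. SESN3, a sestrin like SESN2, averaged 83.8 CPM in CC, 320.2 in TC, 450.1 in PC and 140.2 in RC (log2 fold change in TC 1.93, adjusted p = 1.07e-08). SESN1 fell by 0.44 and CHAC2, a relative of CHAC1, by 0.38, from 10.6 to 8.18 CPM (adjusted p = 0.0373, with overlapping libraries). With genes kept down to a summed count of 2, 1 of the relatives was lower. In PC 1 was higher and 2 were lower (median -0.14), against 33.2% and 35.9% of all genes. In RC 2 were higher and 0 lower (median 0.12), against 18.2% and 19.1%.

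Of 14 other stress genes of the endoplasmic reticulum, 5 were higher and 4 lower in TC, with a median of 0.09, near the shares of all genes (33.2% and 34.7%). CRELD2 (42.0 to 107 CPM, log2 fold change 1.35), DNAJC3 (106 to 199 CPM, 0.90) and the chaperone HSPA5 (604.5 to 958 CPM, 0.66) rose. The sensor ERN1 (38.01 to 14.4 CPM, -1.40), its target XBP1 (172 to 77.1 CPM, -1.15) and HERPUD1 (142 to 86.4 CPM, -0.72) fell. In PC 5 were higher and 4 lower (median 0.14), against 33.2% and 35.9% of all genes. In RC 3 were higher and 4 lower (median 0.02), against 18.2% and 19.1%, with 5 higher when library totals were used for scaling.

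By the Pearson correlation of log2 CPM over the 12 libraries, the genes most like ATF4 among 9527 candidates were IFRD1 (r = 0.990), RPF2 (0.988), EIF2S3 (0.988), RSL24D1 (0.987) and PYCR1 (0.987). Those most like DDIT3 were EIF1B (0.995), IFRD1 (0.994), RSL24D1 (0.992), MOSPD2 (0.990) and HLX (0.988). The 12 points fall into the groups of the study and share their scaling, so that these values mainly describe the order of the group levels. IFRD1 averaged 161 CPM in CC, 25.7 in TC, 29.5 in PC and 62.4 in RC. HLX, a homeobox factor, averaged 53.8, 1.87, 1.90 and 9.88 CPM in the same order.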

How the data were processed

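RNA was sequenced on an Illumina instrument after depletion of ribosomal RNA in 12 libraries. The deposited values are raw counts of reads for each gene, which the authors made by trimming with fastp 0.20.1, aligning to GRCh38.p13 with HISAT2 2.2.1 and counting on exons with htseq-count (HTSeq 0.13.5). The strand setting and the treatment of reads matching several places were not given in the sources used here, and 5088 entries are numbered copies of a gene name. From the counts, edgeR 4.0.16 (R 4.3.3) was used to fit a single quasi-likelihood model, in which each group had its mean, over the 12 libraries together (TMM factors 0.965 to 1.02, biological coefficient of variation 0.182, 8 residual degrees of freedom). The 15916 genes with a mean library-scaled count of at least 10 were tested in 5 comparisons, with Benjamini-Hochberg adjustment over all of them. A gene was called at an adjusted p under 0.05, and glmTreat at the same limit of 0.05 gave the calls beyond 1.5-fold. Tests were two-sided, and SEs were derived from the F statistic. Levels are CPM (counts scaled to normalized library size). The procedure was tested on simulated data.

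The regulators, pathway lists, marker lists and tests were chosen with earlier results of these data known. Besides the 10 regulators, up to 3 genes with the largest rise and 3 with the largest fall in TC among those called, with a mean of at least 1 CPM, were named per list, and the 5 genes most like ATF4 and DDIT3, with a mean of at least 10 CPM (prior count 2). The melanoma markers, CD68, LUM and the other cell markers, MARS1, MBD6, NUP62 and CEBPB-AS1 were named for their values beside a result. ASNS was named for its promoter stretch, and PCK2, CARS1, SQSTM1 and HYOU1 for their numbered entries. XPOT was named as the gene of the tRNA charging list that is not a synthetase. Alternatives were DESeq2 1.42.0 (size factors, and its Wald test with a log2 threshold of 0.585 for 1.5-fold), library totals, a summed count of at least 2, only the groups compared, the replicate number as a block, and leaving out each library. Positions came from GENCODE v44 and promoters from RefSeq.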

Additional observations from a re-analysis of the deposited data

How the results depend on the processing

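The counts of regulators changed in TC and PC against CC and in RC against PC, in total, by direction and beyond 1.5-fold, stayed within 1.5 times under every alternative run, and another scaling moved the median of all genes by less than 0.1 on the log2 scale. CHAC1 rested on 33 to 50 counts per library in TC and PC, where counting error limits its precision. Fitting only the groups compared gave 4 regulators changed in RC against CC (4 lower), 1 beyond 1.5-fold in that comparison, and 4 changed in PC against TC, of which 3 were higher. The DESeq2 Wald test gave 1 beyond 1.5-fold in RC against CC, and 2 changed with 1 higher in PC against TC. Leaving out single libraries gave 4 to 9 changed, 4 to 9 lower and 1 to 4 beyond 1.5-fold in RC against CC, and 0 to 3 changed, 0 to 2 higher and 0 to 1 lower in PC against TC. Leaving out CC replicate 3 turned PPP1R15A in TC (-0.74 to 0.13 on the log2 scale over the libraries left out) and in PC (-0.35 to 0.52), and leaving out PC replicate 2 turned CHAC1 between PC and TC (-0.0605 to 0.20). Fits on fewer libraries have fewer degrees of freedom, and the cause of each change was not otherwise tested. Of the values of single regulators under the alternatives, 772 kept direction and call, 22 lost the call, 13 gained it and 3 changed sign.

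Over 18 pairs of same-numbered libraries, deviations from the group means correlated between -0.04 and 0.16. The 2 pairs that exceeded 0.1 were of TC with PC. Over 36 pairs of different number, the values ran from -0.12 to 0.04, and 0 exceeded 0.1. In all, 8 of 12 libraries correlated best with one of their own number. Whether the numbers mark paired cultures is not stated and was not tested. With the replicate block, 8 regulators were changed in TC, PC and RC against CC, 1 in PC against TC and 7 in RC against PC, and the numbers beyond 1.5-fold were 8, 7, 2, 0 and 6.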
